A study of Mus musculus with 7 samples.

Results

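Of 103809 merged regions of open chromatin in sorted intestinal stem cells, 50324 held an ATAC-seq peak in all 7 libraries of the series, and 2580 of these shared regions ranked higher in the recipients of allogeneic marrow (Allo) than in the syngeneic controls (Syn). ATAC-seq uses the Tn5 transposase to insert sequencing adapters into accessible DNA, so a peak marks a stretch of open chromatin. Each peak was given its rank percentile within the list of its own library, from the authors' −log10 q, a measure of how firmly the peak caller called it, with 100 for the best peak. A region was a member when its lowest Allo percentile lay above its highest Syn percentile and the mean of the Allo percentiles exceeded that of the Syn percentiles by 10 points or more. The members were chosen on measured values, so their percentiles are a description of that choice and carry no test.

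All recipients bore a GFP reporter of Lgr5 (strain B6-GFP-Lgr5), a marker of the stem cells at the crypt base, by which the cells were sorted. All recipients were female mice aged 8 to 12 weeks that had been lethally irradiated and given a bone marrow transplant, and cells were taken on day 7. The 4 Allo libraries came from BALB/c marrow in B6-GFP-Lgr5 recipients and the 3 Syn libraries from syngeneic transplants. Each library held 50000 cells pooled from 3 to 4 mice, so that differences between single mice cannot be seen, and irradiation is common to both groups. The question was how the open chromatin of the stem cells differs when the graft can attack the host, as in graft-versus-host disease. The stem cell markers Lgr5, Olfm4, Ascl2, Smoc2 and Prom1 and the epithelial gene Epcam had a peak at a gene end in each of the 7 libraries, and of the 25 stem cell genes listed Axin2 and Aqp4 had none in any.

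In that disease donor T cells recognise foreign histocompatibility antigens on host tissue and release cytokines such as interferon gamma, and the intestinal crypt is among its main targets. Interferons act through STAT and IRF transcription factors, which bind the GAS and ISRE elements of their target genes, and interferon gamma also induces the genes of MHC class II, which present antigen to helper T cells. The crypt contains, besides stem cells, their secretory and absorptive progeny, including tuft cells, a rare chemosensory cell type that depends on the transcription factor Pou2f3 and releases interleukin 25, leukotrienes and prostaglandins.

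The promoter sequences of members at 5 genes are shown here as examples. They are 2 tuft cell genes (Dclk1 and Avil), an interferon-inducible GTPase gene (Irgm1), a TNF-induced gene (Tnfaip2) and Tgm1. Tgm1 encodes a transglutaminase, and its promoter holds both interferon-related motifs. Dclk1 was among the 8 members of largest difference over a promoter, and the other 4 were chosen after their values had been seen. The 5 do not represent their gene groups. Promoter members at H2-Ob (30.48 points) and Oas1f (28.89 points) had larger differences than that at Irgm1 (22.03 points) but held neither interferon-related motif. Each printed sequence runs from 250 bases before to 50 bases after the transcription start in RefSeq GRCm38.p6, in the direction of transcription. Capitals mark every match to any of the 14 motifs searched.
Dclk1: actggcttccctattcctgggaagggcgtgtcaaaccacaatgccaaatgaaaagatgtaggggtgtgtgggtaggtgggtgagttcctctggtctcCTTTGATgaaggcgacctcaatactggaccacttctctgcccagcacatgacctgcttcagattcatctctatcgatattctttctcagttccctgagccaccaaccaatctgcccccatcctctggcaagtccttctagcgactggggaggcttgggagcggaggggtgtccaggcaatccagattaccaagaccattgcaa
Avil: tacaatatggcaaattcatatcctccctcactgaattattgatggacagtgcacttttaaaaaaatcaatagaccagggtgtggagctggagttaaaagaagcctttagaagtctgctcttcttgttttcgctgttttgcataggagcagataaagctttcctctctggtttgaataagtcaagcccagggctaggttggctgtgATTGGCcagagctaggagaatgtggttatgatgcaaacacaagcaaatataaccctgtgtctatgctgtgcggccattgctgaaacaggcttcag
Irgm1: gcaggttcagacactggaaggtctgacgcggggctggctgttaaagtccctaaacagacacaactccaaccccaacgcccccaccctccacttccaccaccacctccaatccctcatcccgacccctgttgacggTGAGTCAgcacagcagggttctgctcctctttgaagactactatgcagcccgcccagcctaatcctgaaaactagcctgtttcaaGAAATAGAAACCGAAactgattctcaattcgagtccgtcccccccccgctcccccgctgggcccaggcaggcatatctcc
Tnfaip2: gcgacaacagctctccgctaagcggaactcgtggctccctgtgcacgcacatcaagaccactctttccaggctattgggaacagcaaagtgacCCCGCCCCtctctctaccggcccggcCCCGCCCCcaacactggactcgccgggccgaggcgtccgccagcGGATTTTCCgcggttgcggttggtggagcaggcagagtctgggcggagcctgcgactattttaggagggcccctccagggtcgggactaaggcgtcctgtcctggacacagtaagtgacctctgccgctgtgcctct
Tgm1: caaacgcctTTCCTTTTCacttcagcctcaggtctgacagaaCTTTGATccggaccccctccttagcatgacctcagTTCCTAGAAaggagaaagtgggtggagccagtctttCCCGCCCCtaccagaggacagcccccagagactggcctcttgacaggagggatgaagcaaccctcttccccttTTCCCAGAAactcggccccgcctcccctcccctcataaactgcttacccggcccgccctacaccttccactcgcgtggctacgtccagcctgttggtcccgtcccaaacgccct

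These windows lie at chr3:55242114-55242413 (Dclk1, plus strand), chr10:127000459-127000758 (Avil, plus strand), chr11:48871371-48871670 (Irgm1, minus strand), chr12:111442411-111442710 (Tnfaip2, plus strand) and chr14:55713443-55713742 (Tgm1, minus strand). In Dclk1 the capitals are a TCF/LEF match at −153 to −147 and in Avil an NF-Y match at −45 to −40, both on the opposite strand, counted in bases from the transcription start. Irgm1 held 2 IRF/ISRE matches, at −30 to −22 and −24 to −16, which overlap each other, and an AP-1 match at −115 to −109. Tnfaip2 held an NF-kB match at −87 to −79 and 2 SP/KLF matches. Tgm1 held an IRF/ISRE match at −241 to −233, GAS matches at −173 to −165 and −64 to −56, and 1 match each for SP/KLF and TCF/LEF.

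The members made up 5.13% of the shared regions, and the mirror rule, with the signs exchanged, found 2323 regions ranked lower in Allo (4.62%). Without the threshold of 10 points, 4055 regions (8.06%) had all Allo percentiles above all Syn percentiles. Over all shared regions the median difference between the Allo and Syn means was 0.44 points, and 54.1% had the higher mean in Allo. The count was set beside those from the 34 remaining divisions of the 7 libraries into groups of 4 and 3, as the rule asks, without a test. Those gave between 43 and 2830 regions with a median of 350, and the 1 that gave more than 2580 set Allo 2 with the 3 Syn libraries against Allo 1, 3 and 4. In the lower direction 2 other divisions gave more than 2323: 3940 regions lay lower in Allo 1 and the 3 Syn libraries than in Allo 2, 3 and 4, and 3038 lower in Allo 1, Allo 2, Syn 1 and Syn 2 than in the remaining libraries. Counting both directions together, the labelled groups gave 4903 regions and the highest other division 4589.

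The members were regions of low to middle rank in Syn that stood higher in Allo, not the best peaks of a library. Their Allo mean percentile had a median of 60.8 (quartiles 50.55 and 70.6) and their Syn mean a median of 37.47 (quartiles 23.2 and 52.73). The difference had a median of 19.89 points, reached 30 points in 497 members (19.3%) and was 65.12 at most. By overall mean percentile, 9.41% of the shared regions between 30 and 40 were members, against 3.16% between 70 and 80, and 0 of the 7176 regions above 90, where there is little room to move by 10 points.

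**Figure D1:**
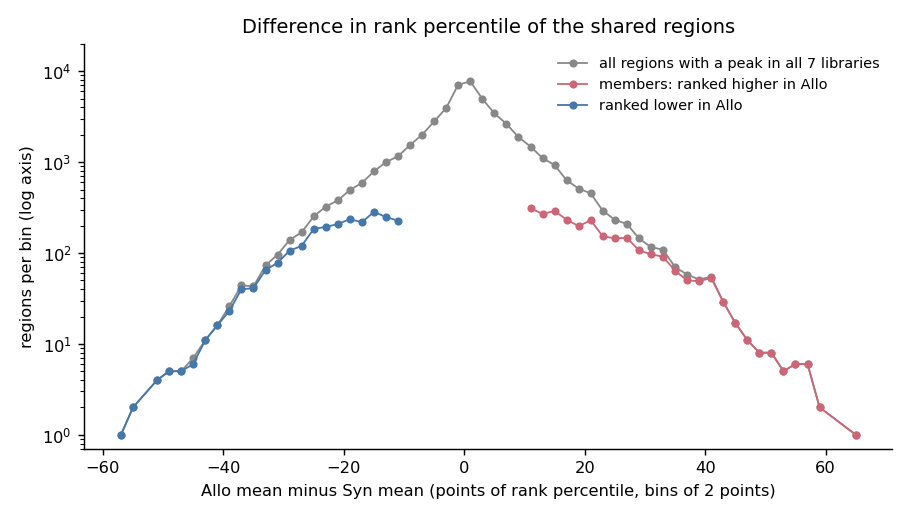
Number of regions per bin of 2 points (log axis) against the Allo mean minus the Syn mean in points of rank percentile, for all 50324 shared regions (grey), the 2580 members (red) and the 2323 regions ranked lower (blue). The grey curve peaks near 0, and at the right-hand end, beyond about 40 points, nearly every shared region is a member.

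The 3 Syn libraries stood close together at the members, and the 4 Allo libraries were spread. The median percentile at the members was 37.46, 38.75 and 39.08 in Syn 1 to 3 and 56.62, 58.68, 67.67 and 63.02 in Allo 1 to 4. Over all shared regions it was 64.66, 65.6 and 66.76 in Syn and 59.45, 66.52, 71.2 and 68.91 in Allo, so that Allo 1, with the shortest list of 62977 peaks, ranked shared regions lowest and Allo 3, with the longest list of 88861 peaks, highest. The authors' −log10 q at the members had medians of 10.84, 11.54 and 12.35 in Syn and 17.0, 19.34, 28.69 and 23.02 in Allo. The authors' fold over background had medians of 4.21, 4.22 and 4.55 in Syn and 5.46, 5.67, 7.12 and 6.83 in Allo, and the peaks were 411 to 428 bp wide in Syn and 462 to 640 bp wide in Allo by median. Allo 3 and 4 had the highest values of the 7 libraries in all of these measures, and their peaks carry names of another scheme than those of the other 5. Sequencing depth is unknown, and the part of depth or of the peak calling in these ranks was not tested. No peak lists were copies, since at most 38 peaks of any pair of libraries had the same position and none of those had the same −log10 q.

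The largest difference was at a region in the body of Uso1, a vesicle tethering factor of the Golgi (chromosome 5, 92188676 to 92189800, mm10). Its percentile was 18.5, 5.24 and 17.7 in Syn 1 to 3 and 75.5, 75.3, 81.4 and 83.6 in Allo 1 to 4, a difference of 65.12 points. The Allo values lie close to each other and far above the Syn values, and the authors' −log10 q was 4.10 to 6.95 in Syn against 30.84 to 47.0 in Allo. A region 5799 bp from Ppm1k, which encodes a mitochondrial phosphatase of branched-chain amino acid breakdown, had 31.3, 10.9 and 3.31 in Syn and 76.1, 79.5, 71.6 and 69.5 in Allo, 59.01 points apart (chromosome 6, 57540999 to 57542079). Here the Syn libraries varied more among themselves than the Allo libraries, with SDs of 14.47 (n = 3) and 4.51 (n = 4).

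The third largest difference was at the MHC class II locus. A region 6353 bp from H2-Eb2, a class II beta chain gene (chromosome 17, 34347479 to 34348265), stood at 8.35, 20.6 and 33.1 in Syn and 70.5, 74.7, 87.2 and 84.5 in Allo, a difference of 58.57 points. The authors' fold over background there was 3.37 to 4.95 in Syn and 7.64 to 12.09 in Allo. A region on chromosome 5 with no gene within 50 kb came next (57.94 points), and then one in the body of the potassium channel gene Kcnd2 (57.78 points), in which Allo 2 at 50.2 stood well below the 80.7 to 90.9 of the other Allo libraries. Dop1b had a region in its body that was tight in Allo, at 84.8 to 88.9, and stood at 21.7 to 37.5 in Syn (57.67 points).

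The rest of the first 15 belonged to no single gene group. They lay in the bodies of Sbno1, Slc23a2 (a vitamin C transporter), Eml6, Slc41a3 (a magnesium transporter), Rptor (the mTORC1 subunit raptor), Mtss1 and Uox (urate oxidase), at the end of Rhog, a small GTPase (55.7 points), and at a place on chromosome 9 with no protein-coding gene within 50 kb. Their differences ran from 54.5 to 57.46 points. In Eml6 and Slc41a3 Allo 2 stood lowest of the Allo libraries, at 32.9 and 39.4, still above each Syn value.

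**Figure D2:**
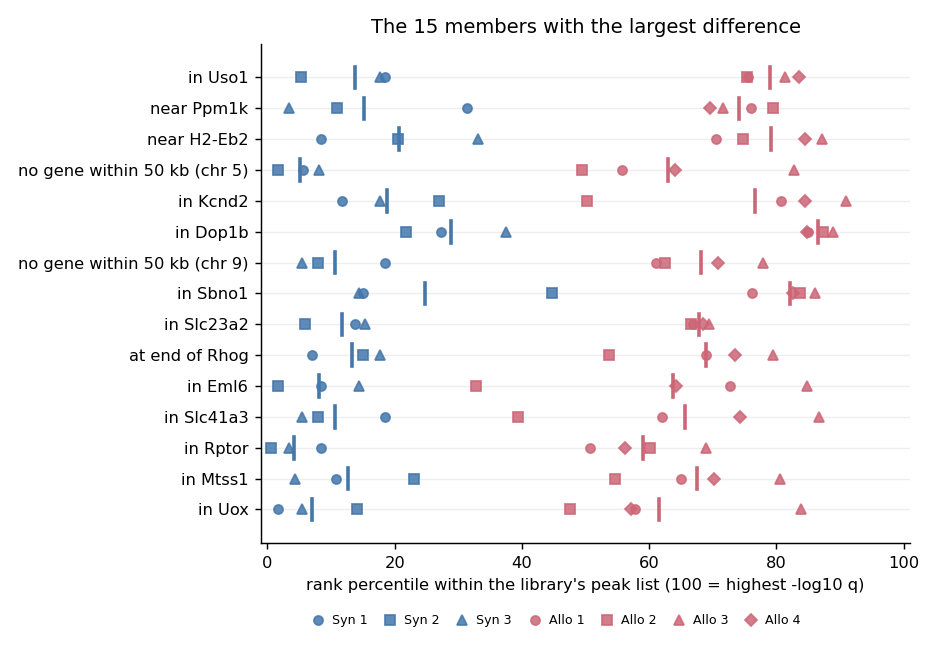
Rank percentile in each library (x axis, 0 to 100) of the 15 members with the largest difference, ordered from top to bottom, with Syn libraries in blue, Allo libraries in red and a bar at each group mean. All Allo symbols lie to the right of all Syn symbols, as the rule requires, and Allo 2 (red square) is often the lowest of the Allo libraries while Uso1 and Slc23a2 are tight in Allo.

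The members of highest rank and those at the threshold show the range of the rule. The 5 highest Allo means were at the end of Them6 (94.3), at the end of Cyb5b (93.34), in Lrrc25 (91.19), near Snx32 (91.18) and in Usp45 (90.67), with differences of 10.03 to 19.45 points. Just inside the threshold lay regions at Arap1, Lgals3 and Chd9, with at most 10.01 points, and just outside it Rab4a, Eif3h and Pde4d, with 9.999, 9.99 and 9.978 points. These 6 regions differ by far less than the libraries of a group do, so the edge of the set is a convention.

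The same ranking was read in libraries that had not been used to choose regions. In each of 12 readings, 1 Allo and 1 Syn library were left out, the rule was applied to the other 5 libraries, and the chosen regions were read in the 2 left out. The left-out Allo library ranked above the left-out Syn library in 48.26% to 94.38% of the chosen regions (median 82.84%), against 28.18% to 68.11% of all regions with a peak in the 5 libraries (median 57.04%). In each reading the chosen regions lay above their background, but the level depended on the Allo library. It was 48.26% to 58.16% in Allo 1 (background 28.18% to 34.02%), 72.02% to 79.33% in Allo 2 (49.24% to 57.11%), 91.6% to 94.38% in Allo 3 (63.59% to 68.11%) and 86.35% to 89.38% in Allo 4 (56.97% to 62.71%). A peak absent from a left-out library counted as percentile 0, and the 12 readings share libraries, so they are no replicates of each other. Each reading chose a set of its own, of 3345 to 7754 regions, and not the members, and the background was not matched for rank level.

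**Figure D3:**
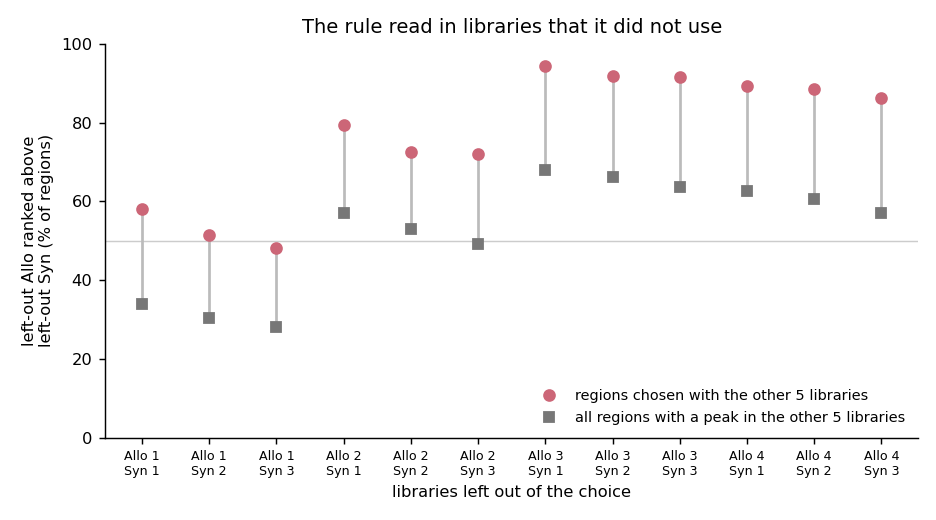
Percentage of regions (y axis, 0 to 100) in which the left-out Allo library ranked above the left-out Syn library, for the 12 pairs of left-out libraries on the x axis. Circles are regions chosen with the other 5 libraries and squares all regions with a peak in those 5, and each circle lies above its square, lowest for Allo 1 and highest for Allo 3.

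The reading was not symmetric between the Allo libraries. Regions chosen with Allo 1 and 2 and 2 Syn libraries had higher means in Allo 3 and 4 than in the left-out Syn library in 86.38% to 88.92% of cases (background 59.76% to 65.52%). Those chosen with Allo 3 and 4 had higher means in Allo 1 and 2 in 45.95% to 58.25% of cases (background 34.15% to 42.16%). With Allo 3 and 4 as the only Allo libraries the rule found 11938 regions, and with Allo 1 and 2 it found 2752.

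With the threshold of 10 points, members lay at gene ends less often than all shared regions did. Gene ends, taken as 1 kb to each side of the start or the end of a protein-coding gene, held 242 members (9.38%), against 24.1% of all shared regions and 5.12% of the regions ranked lower. Gene bodies held 1298 members (50.3%, against 41.5% of all shared regions), and 794 (30.8%, against 25.4%) lay outside but within 50 kb of a gene. No gene was within 50 kb of 246 members (9.53%), close to the 8.96% of all shared regions and below the 18.3% of the regions ranked lower. The gene-end share moved with the threshold of 10 points. Without it gene ends held 24.36% of the regions with all Allo above all Syn percentiles, close to the 24.1% of all shared regions. Shares by place were not matched for rank level. The gene table gives gene spans and no exons, so exons and introns within bodies were not told apart.

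Members were narrower than other shared regions and lay nearer to each other than the regions ranked lower did. Their median width was 720 bp, against 889 bp for all shared regions and 812 bp for the regions ranked lower. Widths were not matched for rank level, and members were rarer among high ranks. The next member was within 50 kb for 687 members (26.6%), and for the regions ranked lower of which there are fewer, the next of their kind was that near in 22.1%. A region open in all Allo and no Syn libraries lay within 50 kb of 317 members (12.3%), against 9.66% of all shared regions and 7.53% of the regions ranked lower. By chromosome, 4.23% to 5.84% of the shared regions on autosomes were members, and 24 of 892 on the X chromosome (2.69%), where 5.94% ranked lower.

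Of 1984 genes with a member, 1709 had 1, 221 had 2 and 54 had 3 or more. Trak1, which encodes an adaptor for mitochondrial transport, had 7 members among its 27 shared regions, along with 2 ranked lower. In other long genes the 2 directions stood side by side, with 5 members and 6 regions ranked lower at Auts2 and 5 and 4 at Zfhx3. At a few genes members made up all or most of the shared regions: 3 of 3 at Alpl (alkaline phosphatase), 3 of 3 at H2-Ob, 3 of 4 at Unc13b, 3 of 4 at Ckap4 and 4 of 7 at Lims1. Nod1, a sensor of bacterial cell wall fragments, had 3 of 6, and none of these 6 genes had a region ranked lower.

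Among the 24 gene lists counted, tuft cell genes had the largest share of members. Of their 55 shared regions 17 (30.9%) were members and 3 (5.45%) ranked lower, and the median difference was 9.33 points, against 0.44 over all shared regions. The list was singled out after its count had been seen. The 17 regions belonged to 14 of the 18 genes, and Trpm5, Gnat3, Siglecf and Ltc4s had none. The 3 regions ranked lower were at Siglecf (−24.16 points) and Sh2d6 (−14.67 and −11.8 points). All 4 shared regions of Trpm5, the cation channel of chemosensory signalling, were nonetheless 10.15 to 12.45 points higher by mean in Allo, with overlapping groups.

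The largest differences at tuft cell genes were at Alox5, Ptgs1 and Alox5ap, which act in lipid mediator synthesis. A region in the body of Alox5, the 5-lipoxygenase that starts leukotriene synthesis (chromosome 6, 116458617 to 116459571), stood at 5.57, 7.19 and 12.5 in Syn and 50.02, 39.3, 78.8 and 54.7 in Allo, 47.27 points apart. Alox5ap, which presents arachidonic acid to that enzyme, had 2 members, 1 in its body (27.5, 27.0 and 40.6 in Syn; 72.8, 53.5, 81.7 and 71.0 in Allo) and 1 at 9185 bp, with differences of 38.06 and 37.87 points. In both, and in Alox5, Allo 3 was the highest library and Allo 2 the lowest of the Allo group. Ptgs1, the constitutive cyclooxygenase, had 1.66, 20.6 and 17.7 in Syn and 53.2, 31.8, 76.8 and 50.3 in Allo, and Hpgds, which makes prostaglandin D2, had a member of 30.97 points.

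Regulators and markers of the tuft lineage were also among them. At the promoter of Dclk1, a kinase used as the tuft cell marker, the region (chromosome 3, 55242030 to 55243045) stood at 5.57, 32.8 and 38.2 in Syn and 58.9, 43.7, 76.5 and 59.8 in Allo, a difference of 34.21 points. Syn 1 was far below the other Syn libraries there, and the gap between Syn 3 and Allo 2 was small. At the promoter of Avil, which encodes the actin-binding protein advillin (chromosome 10, 127000124 to 127001639), the values were 53.2, 60.3 and 47.3 in Syn and 82.3, 64.8, 85.8 and 74.6 in Allo, 23.24 points apart. Pou2f3 had members in its body (27.42 points) and 4531 bp away (22.1 points), and Gfi1b, a transcriptional repressor, had 1 at its end (20.76 points) and 1 near it (30.26 points). The cytokine gene Il25 had a member at 1114 bp (36.63 points), and the smallest differences of the list were at Plcb2, a phospholipase C (15.09 points), and Sox9, also a stem cell gene (12.11 points).

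**Figure D4:**
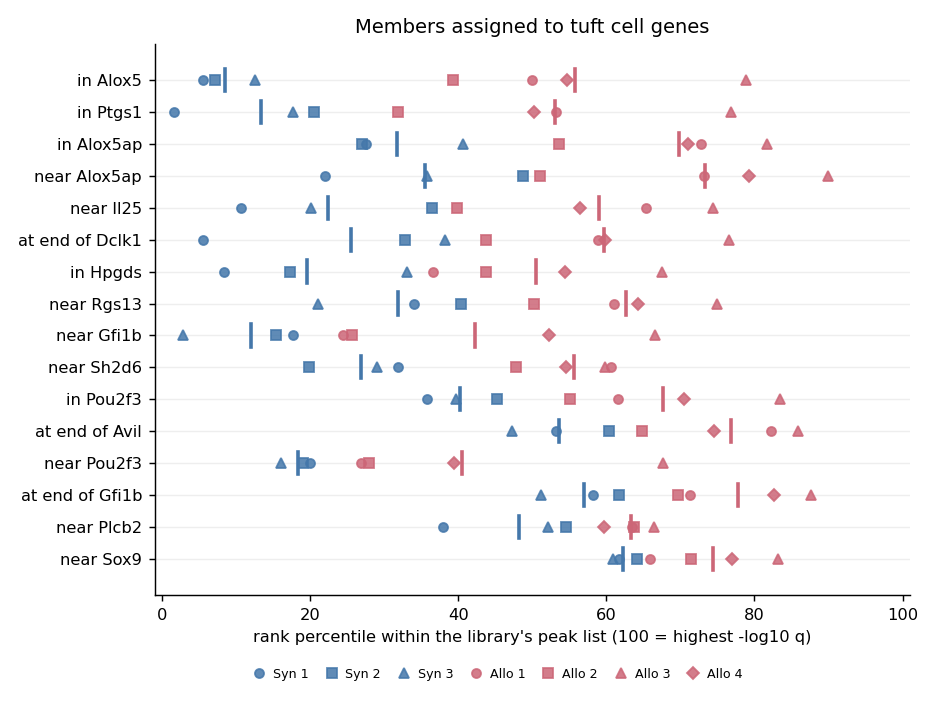
Rank percentile in each library (x axis, 0 to 100) of 16 of the 17 members assigned to tuft cell genes, ordered by difference, with Syn libraries in blue, Allo libraries in red and a bar at each group mean. Allo 3 (red triangle) is the highest library at every region drawn but the one near Sh2d6, and at several genes the lowest Allo value is close to the highest Syn value.

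Tuft cell genes also had more gene-end peaks in the Allo lists. A peak within 1 kb of a gene end was present at 11, 13 and 12 of the 18 genes in Syn and at 16, 14, 17 and 17 in Allo, while for the 25 stem cell genes it was 23 in each library. For interferon-response genes it was 57, 58 and 57 of 73 in Syn and 66, 66, 67 and 67 in Allo, and over all genes 13280, 13347 and 13498 in Syn and 12987, 13411, 13690 and 13507 in Allo, where the groups overlap. Siglecf and Plcb2 had one in Allo 1, 3 and 4 and in no Syn library, although a shared region of Siglecf ranked lower in Allo (−24.16 points). Over all 55 shared regions of the tuft cell list the median percentile was 53.17 to 54.5 in Syn and 58.93, 61.01, 74.9 and 64.28 in Allo. These medians do not overlap, but 17 of the 55 regions are members, which the rule chose for not overlapping. The cells were measured in bulk, so a larger share of cells of a type in the sort and more open chromatin per cell cannot be told apart. With each list cut to its best 62977 peaks, 10 of 41 shared regions of tuft cell genes met the rule (24.4%, against 4.84% of all), and with Allo 1 and 2 as the only Allo libraries 15 of 55 (27.3%, against 5.34%).

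Several of the tuft cell genes, such as Alox5, Alox5ap, Hpgds and Ptgs1, are also active in blood cells, so the leukocyte lists stand beside them. Members made up 0 of 20 shared regions of T and NK cell genes, 0 of 11 of myeloid genes (of which 2 ranked lower), 0 of 3 of B cell genes and 4 of 30 of pan-haematopoietic genes (13.3%, with 3 ranked lower). Those 4 lay in Vav1 (42.61 and 13.18 points), Lcp1 (26.1 points) and Runx1 (23.52 points). Over the 30 regions the median percentile was 58.57 to 63.44 in Syn and 61.76, 64.92, 77.21 and 74.44 in Allo, higher in Allo 3 and 4 than in the rest. Gene-end peaks were present at 3 to 4 of 10 pan-haematopoietic, 2 of 16 T and NK cell, 3 to 4 of 8 myeloid and 1 of 5 B cell genes in each library. Ptprc, which encodes CD45, and Cd3e, Cd3d, Cd3g and Cd8a, which encode T cell receptor and co-receptor subunits, were at 0 in all 7 libraries. Cd247, Cd4, Coro1a, Spi1, Lcp1, Itgam, Cd14, Itgax and Cd79b had a gene-end peak in all 7. Cd68 had one in Syn 3 and in all 4 Allo libraries, Vav1 in Syn 1, Syn 2, Allo 3 and Allo 4, and Ikzf1 in Allo 2 only. The part of blood cells in the results was not tested.

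MHC class II genes had 10 members among 43 shared regions (23.3%) and none ranked lower, and this list too was singled out after its count had been seen. Besides H2-Eb2, H2-Ab1, a class II beta chain gene, had a member 5439 bp away (chromosome 17, 34257640 to 34258232) that stood at 30.1, 25.4 and 36.6 in Syn and 56.9, 59.6, 71.5 and 74.7 in Allo, with means of 30.69 and 65.69. A second one at its gene end had 24.2, 31.4 and 36.8 in Syn and 47.9, 57.9, 52.2 and 50.2 in Allo (21.25 points). All 3 shared regions of H2-Ob, a subunit of the class II loading modulator, were members, with 30.48, 20.97 and 11.57 points.

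Of the class II regulators, Ciita, the transactivator of the whole class, had a member of 13.46 points and Rfx5, a subunit of the factor that binds class II promoters, 1 of 11.02 points. H2-Oa (16.41 points) and H2-Aa (11.32 points) each had 1 member, while H2-Eb1, H2-DMa, H2-DMb1 and the invariant chain gene Cd74 had none of their 3 shared regions each. The median percentile over the 43 regions was 61.95, 65.2 and 66.47 in Syn and 67.6, 69.03, 73.6 and 74.33 in Allo. These medians do not overlap, but 10 of the 43 regions are members, which the rule chose for not overlapping. When regions were ranked by the authors' fold over background in place of −log10 q, the balance turned, with 4 class II regions ranked higher and 8 lower. The call of a member rests on the −log10 q for this list. MHC class I genes had 2 members among 49 regions (4.08%), at H2-T24 (26.65 points) and near H2-D1 (15.12 points), against 5.13% of all shared regions. Their regions ranked high, with median percentiles of 73.53 to 78.69 by library. Of all shared regions with an overall mean percentile between 70 and 80, 3.16% were members.

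Interferon-response genes had 26 members among 176 shared regions (14.8%), at 23 of 59 genes with a shared region, and 6 regions ranked lower. The median difference was 2.01 points, and the list's median percentile overlapped between groups, at 62.67 to 64.79 in Syn and 64.35 to 69.89 in Allo. Here too the ranking by fold turned the balance, with 11 regions ranked higher (6.25%, against 4.07% of all) and 17 lower. By −log10 q the share was above its background without any 1 library, at 14.6% to 21.7%, against 5.04% to 10.2% of all shared regions.

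The largest differences of the list were at Tgtp1 and Cd274. A region 2005 bp from Tgtp1, an interferon-inducible GTPase (chromosome 11, 48993301 to 48994478), stood at 31.3, 27.0 and 17.7 in Syn and 66.6, 73.5, 67.9 and 72.8 in Allo, 44.84 points apart. In the body of Cd274, which encodes the T cell inhibitory ligand PD-L1 (chromosome 19, 29384117 to 29384870), the values were 3.35, 10.9 and 3.31 in Syn and 59.3, 15.4, 73.7 and 42.2 in Allo. Its mean difference was 41.82 points, but Allo 2 lay only a little above Syn 2. Usp18, which removes the modifier ISG15 and restrains interferon signalling, had members near it (31.81 points) and in its body (18.84 points), and Ido1, which degrades tryptophan, had 1 of 28.23 points.

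Receptors and regulators of the pathway were members as well. Ifnar2 and Ifnar1, the subunits of the type I interferon receptor, had members of 31.42 and 12.65 points, and Ifngr2, a subunit of the interferon gamma receptor, 1 of 22.64 points. Of the IRF transcription factors, Irf2 had 3 members of 16 shared regions (26.93, 21.35 and 19.02 points) and 1 region ranked lower, Irf1 1 member (23.94 points) and Irf8 1 member (10.7 points) and 1 ranked lower. Socs1, a feedback inhibitor, had 1 of 20.41 points. At the Irgm1 promoter the values were 29.4, 39.3 and 41.6 in Syn and 61.4, 53.3, 67.9 and 52.5 in Allo, 22.03 points apart. Ifi47, a related GTPase gene, went the other way, with 2 regions ranked lower, at differences of −34.27 and −21.71 points.

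**Figure D5:**
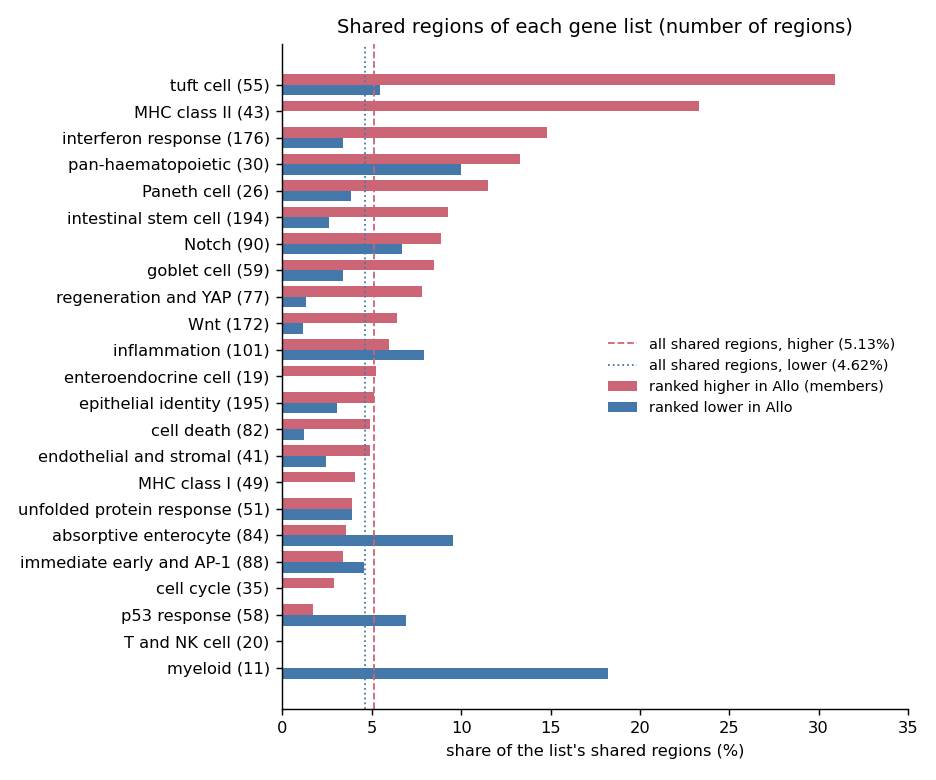
Share of the shared regions of each gene list (x axis, %) that ranked higher in Allo (red, members) or lower (blue), with the number of shared regions of each list in brackets and the shares over all shared regions as dashed (higher) and dotted (lower) lines. Tuft cell, MHC class II and interferon-response genes have the longest red bars, and B cell genes, with 3 regions, are not drawn.

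Genes of the stem cell state had 18 members among 194 shared regions (9.28%, against 5.13% of all shared regions) and 5 regions ranked lower. The list's median percentile overlapped between groups, at 60.17 to 60.96 in Syn and 57.02 to 65.53 in Allo. With lists of matched length 11 of 168 regions met the rule (6.55%, against 4.84% of all) and 8 ranked lower. A region 6832 bp from Ascl2, a transcription factor that maintains the stem cells (chromosome 7, 142959533 to 142960358), stood at 29.4, 21.6 and 28.1 in Syn and 59.8, 62.7, 75.4 and 63.5 in Allo, 38.99 points apart. Ephb2, a receptor that positions cells along the crypt, had 3 members (32.33, 25.14 and 16.25 points) and 1 region ranked lower. Lrig1, a brake on growth factor receptors, had members of 26.46 and 15.2 points and 1 region ranked lower, and Soat1 and Rgmb had 1 each (31.52 and 22.53 points). Lgr5 itself had no member among 6 shared regions and 1 ranked lower, at −17.64 points, and Olfm4 had none. Ranked by fold, the list had 10 regions higher (5.15%, against 4.07% of all) and 7 lower.

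Wnt pathway genes had 11 members among 172 regions (6.4%, near the 5.13% of all shared regions) and 2 ranked lower. The co-receptor gene Lrp5 had 9.83, 12.1 and 26.2 in Syn and 56.0, 46.9, 58.7 and 55.4 in Allo (38.21 points), and the pathway's scaffold Apc and its transcription factor Tcf7l2 followed with 28.0 and 26.1 points. Nkd1 (25.03 points), an inhibitor that is itself a Wnt target, Ccnd1 (21.72 points), Wnt3 (20.75 points) and Ctnnb1, which encodes beta-catenin (10.17 points), also had members.

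Inflammation genes of the NF-kB and STAT3 pathways had 6 members among 101 regions (5.94%), near the background, and 8 ranked lower. The members included a region 42566 bp from the cytokine gene Il1b (46.63 points), one in Stat3 (35.53 points) and the Tnfaip2 promoter, at 6.26, 12.8 and 25.1 in Syn and 37.1, 39.6, 49.1 and 58.9 in Allo (31.42 points). The chemokine gene Ccl5 (16.91 points), Nfkb2 (12.6 points) and Tnfaip3, which encodes the NF-kB inhibitor A20 (11.83 points), made up the rest.

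The shares of the other lists lay on both sides of the 5.13% of all shared regions. Shares of members were 11.5% for Paneth cell (3 of 26), 8.89% for Notch (8 of 90, with 6 lower), 8.47% for goblet cell (5 of 59), 7.79% for regeneration and YAP (6 of 77), 5.26% for enteroendocrine cell (1 of 19) and 5.13% for epithelial identity genes (10 of 195). They were 4.88% for cell death (4 of 82) and for endothelial and stromal genes (2 of 41), 3.92% for the unfolded protein response (2 of 51), 3.41% for immediate early and AP-1 genes (3 of 88), 2.86% for cell cycle (1 of 35) and 1.72% for p53 response genes (1 of 58). Absorptive enterocyte genes went the other way, with 3 members and 8 regions ranked lower of 84 and a median difference of −2.36 points. These counts carry no test, and regions of 1 gene share their surroundings. No list's share was matched for rank level, and members were rarer among high ranks. Library medians were 85.22 to 91.41 for cell cycle, 45.81 to 58.55 for Paneth cell and 53.17 to 74.9 for tuft cell genes.

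Motifs were counted in the promoters that members overlapped. Of the members, 198 (7.67%) overlapped a promoter window of 300 bases, against 22.1% of all shared regions and 4.35% of those ranked lower, and they covered 238 windows. IRF/ISRE letters (GAAANNGAA) were found in 25 of these (10.5%), against 6.39% of 14610 promoters over shared regions, 8.53% of all 32619 promoters and 4.8% of 125 promoters over regions ranked lower. GAS letters (TTCNNNGAA), which read the same on both strands, were in 21 (8.82%, against 6.45%, 8.34% and 5.6%). Either of these was in 43 (18.1%, against 12.2%, 15.8% and 10.4%), and both were in 3, of which Tgm1 is one, with a difference of 27.26 points.

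Other motifs were more frequent than over shared regions in some cases and less in others. NF-kB letters (GGANTTTCC) were in 7 windows (2.94%, against 1.29% over shared regions and 1.26% of all promoters) and TCF/LEF letters (ATCAAAG) in 11 (4.62%, against 2.5% and 3.76%). AP-1 letters (TGANTCA) were in 14 (5.88%, against 4.83% and 7.85%) and in 12.0% of the promoters over regions ranked lower. SP/KLF letters (GGGGCGGG) were in 55 (23.1%, against 31.2% and 16.6%), and ETS letters (CCGGAAGT) in 7 (2.94%, against 7.67% and 3.91%). The shares of NRF1 (GCGCATGCG), CRE (TGACGTCA), HNF4 (CAAAGTCCA), CDX2 (GCAATAAA) and CTCF letters (CCACNAGGG) were 1.68%, 1.68%, 0.42%, 0.84% and 2.1%. Over shared regions these shares were 3.47%, 3.03%, 0.5%, 0.479% and 1.74%, and over all promoters 1.75%, 1.8%, 0.478%, 0.981% and 1.46%. GATA letters (AGATAAG) were in 5 windows (2.1%, against 1.85% over shared regions and 3.04% of all promoters). NF-Y letters (GCCAAT) were in 30 windows (12.6%, against 18.8% and 14.8%). Both strands were searched, a match describes letters and not binding, and most members lie outside promoters and were not searched.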

How the data were processed

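Omni-ATAC-seq libraries of 3 Syn and 4 Allo pools, grouped by their titles, were sequenced in pairs of 150 nt. Per the submitters' processing notes, mm10 was the build and the tools were MACS2 and MACS3, Bowtie2 and Trim Galore, with neither version nor role stated. The authors deposited 1 peak list per library, with a score, a fold over background (ratio to the local background), −log10 p and −log10 q per peak. These are the authors' own values per peak, used only to rank, filter or describe peaks within a list. The lowest −log10 q was 1.30, and how peaks were thresholded and reads shifted or filtered was not given in the sources used here. Depth is unknown, and no interval was computed.

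Peaks on chromosomes 1 to 19 and X that overlapped by 1 bp or more were merged, and the highest percentile of −log10 q within a region was taken per library. The members and the gene lists were chosen with earlier results of these data known. A region was assigned to the protein-coding gene (21631 in RefSeq GRCm38.p6, the same build as mm10) in whose body its summit fell, or else to the closest within 50 kb, and 501 of 512 list entries matched. Promoters came from a RefSeq table that holds no chromosome 18. Genes were named by rule: the 15 largest differences, up to 6 members each of 7 lists, the 5 highest Allo means, 3 regions on either side of the threshold, genes with 3 or more members and promoters of the 8 largest differences. Not all of these are printed, and tuft cell, leukocyte, other class II and other interferon-response genes were added after their values had been seen. No test between the groups was run on the members, and the 4 Allo values at each named member were only screened for a distant library by Dixon's ratio of gap to range. The rule's script was tested on simulated data with planted regions. Python 3.11.15, numpy 2.4.6, scipy 1.17.1, pandas 2.3.3 and matplotlib 3.10.9 were used. Alternatives were other thresholds, rankings, merging rules, list lengths and sets of libraries. Some items are not reported here.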

Additional observations from a re-analysis of the deposited data

Results flagged for a closer look

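Of 75 sets of 4 Allo values at named members, 1 stood out by a single distant library, by Dixon's ratio of the gap to the range of the set. By chance that ratio flags about 1 in 20 sets, but the members were chosen on these same values, so that this rate need not hold here. At the region near Tnfaip3 (chromosome 10, start 19023481) Allo 2 stood at a rank percentile of 70.61, and Allo 1, 3 and 4 at 51.1, 53.1 and 50.3. The Syn values there were 39.8, 49.97 and 43.6, so that Allo 4 and Syn 2 were almost level.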

How the results depend on the processing

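Counts of regions moved most with the libraries used. Members numbered 4055 with no threshold, 11938 with Allo 3 and 4 only and between 2566 (without Allo 3) and 5598 (without Allo 1) when each library was left out. Regions ranked lower numbered 6370 with Allo 1 and 2 only, 4825 with Allo 3 and 4 only and 2693 to 4058 (without Allo 2) when each library was left out.

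The gene-end share was 16.16% at 5 points, 6.95% at 15 points, 24.36% with no threshold, 11.53% with ranks over shared regions only, 11.09% with lists of matched length, 7.41% with Allo 1 and 2 only, 12.41% with Allo 3 and 4 only and 8.18% to 11.35% when each library was left out.

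Interferon-response members numbered 11 ranked by fold and 47 with Allo 3 and 4 only, and 26 to 39 when each library was left out. Tuft cell members numbered 10 with lists of matched length, 31 with Allo 3 and 4 only and 16 to 24 when each library was left out. Class II members numbered 6 at 15 points, 4 ranked by fold and 8 to 12 when each library was left out. Stem cell members numbered 28 at 5 points, 33 with no threshold, 10 ranked by fold, 11 with lists of matched length, 58 with Allo 3 and 4 only and 18 to 29 (without Allo 1) when each library was left out. The cause of these changes was not tested, except that a lower threshold or none makes the rule less strict by construction. Fewer libraries leave fewer values to separate, but the condition of 10 points between the means stays. Without Allo 3 the rule found 2566 members, against 2580 with all 7 libraries.

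With the replicate block (Allo above Syn in each pair 1, 2 and 3) there were 4184 members and 4305 regions ranked lower. The deviations of same-numbered libraries from their group means had Pearson correlations of 0.08, −0.03 and 0.07 across regions. Over all pairs of a Syn and an Allo library these ran from −0.09 to 0.08, with same-numbered pairs 1 and 3 the highest. Whether same-numbered libraries share more than a number was not tested. All 75 named differences were positive ranked by fold (2.82 to 63.36 points, of which 64 were at 10 points or more and 25 moved by more than the spread between libraries), over shared ranks and by mean percentile, and a region was left for 51 at −log10 q of at least 5 and for 40 with lists of matched length.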
